A study of Caenorhabditis elegans with 2 samples.

Results

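The genes for small nuclear RNAs (snRNAs) of the nematode Caenorhabditis elegans were examined for binding of the TATA-binding protein TBP-1. They were all genes of biotype snRNA in the Ensembl annotation of WBcel235 (the same build as ce11) whose symbol does not start with sls-1. or sls-2., which mark spliced leader genes. This gave 99 genes of 46890 annotated nuclear genes, after 30 spliced leader genes were set aside from 129 snRNA genes. No binding value entered this choice. Because Ensembl gives many of them a shared symbol, genes are named here as RefSeq names them, which gave 99 different names.

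TBP-1 binding was mapped by chromatin immunoprecipitation and sequencing with an antibody against GFP, in whole animals of strain OP746. This strain is unc-119(tm4063) and carries the transgene wgIs746, which holds tbp-1 fused to TY1, EGFP and 3xFLAG tags together with unc-119(+). The animals were young adults of mixed sex, pooled, 65 hours old, grown from eggs freed by bleaching and held without food at the L1 stage. There was 1 group of 2 biological replicates and no second condition, so every comparison is between genes within these animals, and no test was made over genes, which are not replicates. A whole-animal sample averages over all tissues, and the labels name no change to the native tbp-1 gene, so untagged protein may also have been present. Binding is given by 4 deposited peak lists: 3862 reproducible peaks, and 30000 peaks and background regions each for replicate 1, replicate 2 and both replicates pooled. Peaks were ranked by their deposited signal within a list, with 1 the strongest. Read depth is unknown, so a gene without a peak may be a gene whose binding could not be detected.

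The snRNAs U1, U2, U4, U5 and U6 form, with their proteins, the spliceosome, which removes introns from pre-mRNA. In animals U1, U2, U4 and U5 are made by RNA polymerase II and U6 by RNA polymerase III, and both kinds of gene start from a proximal sequence element that the snRNA activating complex binds together with the TATA-binding protein. In vertebrates a TATA box beside that element directs the U6 gene to RNA polymerase III. SmY RNAs, encoded by the smy genes, are nematode RNAs that bind Sm proteins and are linked to trans-splicing.

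The reference names none of these genes U1 to U6, so they were grouped by transcript sequence, at 80% identity or more over 80% or more of the shorter transcript, and each group is called by the member with its strongest peak. The sup-6 family had 14 genes with a median transcript length of 165 bases. Mutations of sup-6 and of sup-39 are known as suppressors that lie in U1 snRNA genes, and 12 of the 14 transcripts held ACTTACC, the word that pairs with the 5' splice site in U1. The W05B2.8 family had 23 genes with a median of 102 bases, of which 22 held ACAGAGA, the word by which U6 contacts the 5' splice site. The Y57G11C.35 family had 19 genes with a median of 187 bases, of which 18 held GTAGTA, the word by which U2 pairs with the branch site. The F38E11.10 family had 12 genes with a median of 122 bases, of which 11 held CTTTTAC, a word of the U5 loop that touches the exons. The C52E4.8 family had 5 genes with a median of 144 bases, all with GCTTTGC at the start, as in U4. The 10 smy genes were 77 to 90 bases long and all held ATTTTTG, a word of the kind that Sm proteins bind, which 59 of the 99 transcripts held. The smy genes were taken by symbol, and only 6 of the 10 joined each other by the rule, as the smy family. The remaining 16 genes joined none of these families and have no smy symbol. Among the 99, 1 further group of 2 genes met the rule and was not counted as a family.

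The transcripts below show these words in capitals for the sup-6, Y57G11C.35 and C52E4.8 families and the smy genes, 5' to 3', read from the RefSeq genome sequence of WBcel235. The gene sup-6 is at chrII:12944803-12944967 and Y57G11C.35 at chrIV:14764848-14765034, both on the minus strand. C52E4.8 is at chrV:11980118-11980261 and smy-8 at chrIV:13600847-13600925, both on the plus strand. The gene smy-8 was chosen after its values were seen.
sup-6: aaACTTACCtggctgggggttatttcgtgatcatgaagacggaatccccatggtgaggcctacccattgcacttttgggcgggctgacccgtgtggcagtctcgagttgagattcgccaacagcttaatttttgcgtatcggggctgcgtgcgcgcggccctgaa
Y57G11C.35: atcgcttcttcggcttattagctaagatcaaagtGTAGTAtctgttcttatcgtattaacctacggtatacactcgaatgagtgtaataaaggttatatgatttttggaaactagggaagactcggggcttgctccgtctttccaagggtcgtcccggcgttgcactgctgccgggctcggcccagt
C52E4.8: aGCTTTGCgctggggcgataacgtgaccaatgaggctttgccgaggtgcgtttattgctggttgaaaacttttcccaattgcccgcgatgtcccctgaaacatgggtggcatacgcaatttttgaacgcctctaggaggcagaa
smy-8: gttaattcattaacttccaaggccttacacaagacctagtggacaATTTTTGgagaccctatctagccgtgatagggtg
The Sm-type word ATTTTTG, in capitals only in smy-8, stands in lower case in the other transcripts shown.

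Upstream of the transcripts the families resembled each other. The 8-base word held by the most genes within 100 bp upstream was GCGGAACC, in 26 of 99 snRNA genes (26.3%) and in 86 of all 46890 genes (0.183%), counted on both strands. Aligning those 26 instances gave the consensus GCGGAACCCGCNAGATGTCNG, of 21 positions with 19 fixed, where N marks a position with no base in 50% or more of the instances. It was built from these genes, so that they hold it is not evidence in itself. Upstream of 44 of the 99 snRNA genes (44.4%) the best match on the gene's own strand had 15 or more of the 19 fixed bases, against 114 of all 46890 genes (0.243%). The element lay at much the same place within a family. Its commonest start was 60 bp before the annotated 5' end in the sup-6 family, 62 bp in the F38E11.10 family, 63 bp in the C52E4.8 family and 71 bp in the W05B2.8 family. All 14 genes of the sup-6 family, 11 of 12 of the F38E11.10 family, 4 of 5 of the C52E4.8 family, 8 of 23 of the W05B2.8 family and 7 of 10 smy genes reached 15 matches. No gene of the Y57G11C.35 family did, with 8 to 13 matches. In 16 of its 19 genes the best match began 62 bp before the 5' end, and 9 of its genes aligned by their best matches gave CGCGCACCCNNGANTTGTCGG. The 9 included T14B4.10 and Y57G11C.35, whose best matches began at -71 and -68 bp and not at -62 bp. The family's other genes were left out of this alignment. In the family's sequence N marks a position with no base in 70% or more of the 9 genes, not 50%. Its other 18 positions are fixed, some of them where the common consensus has N and no match is possible. It has the base of the common consensus at 11 of them.

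The 100 bases upstream of the 5' end are shown for genes of each kind, from the RefSeq sequence of WBcel235, on the strand of the gene, so that the last base printed is the one before the transcript. Capitals mark the best match to the consensus and, in 4 of them, the word TATATA. They lie at chrII:12944968-12945067 for sup-6, minus strand; chrIII:10989579-10989678 for W05B2.8, plus strand; chrII:13829492-13829591 for F08G2.10, minus strand. Those of ZK897.3, C52E4.8 and smy-8, all on the plus strand, lie at chrIV:12786029-12786128, chrV:11980018-11980117 and chrIV:13600747-13600846. F08G2.10 stands for the Y57G11C.35 family with 12 matches and ZK897.3 for the F38E11.10 family, both chosen after their values were seen.
sup-6: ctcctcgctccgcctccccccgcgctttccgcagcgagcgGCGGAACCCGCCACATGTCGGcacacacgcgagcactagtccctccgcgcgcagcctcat
W05B2.8: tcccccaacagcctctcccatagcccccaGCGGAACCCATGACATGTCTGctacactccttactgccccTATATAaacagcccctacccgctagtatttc
F08G2.10: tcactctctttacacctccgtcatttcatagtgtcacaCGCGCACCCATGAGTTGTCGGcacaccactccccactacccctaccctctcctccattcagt
ZK897.3: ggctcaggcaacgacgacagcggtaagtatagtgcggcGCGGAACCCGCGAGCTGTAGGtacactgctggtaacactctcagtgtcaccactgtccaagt
C52E4.8: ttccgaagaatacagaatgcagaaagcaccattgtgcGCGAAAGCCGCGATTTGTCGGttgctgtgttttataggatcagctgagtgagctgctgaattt
smy-8: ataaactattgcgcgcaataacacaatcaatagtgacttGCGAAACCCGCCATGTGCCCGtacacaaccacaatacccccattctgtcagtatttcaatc
The next 4 have fewer matches. F54C8.10, with 12, and K09B11.15, with 11, are further genes of the W05B2.8 family, at chrIII:9449469-9449568 on the plus and chrIV:13443497-13443596 on the minus strand. M163.13, with 10, joined no family and lies at chrX:14476767-14476866 on the plus strand. B0213.23, with 10 matches off the usual place and so no capitals, lies at chrV:3962507-3962606 on the plus strand. K09B11.15 and B0213.23 were chosen after their values were seen.
F54C8.10: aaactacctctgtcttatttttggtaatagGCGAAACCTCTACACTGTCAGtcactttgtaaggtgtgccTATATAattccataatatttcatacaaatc
K09B11.15: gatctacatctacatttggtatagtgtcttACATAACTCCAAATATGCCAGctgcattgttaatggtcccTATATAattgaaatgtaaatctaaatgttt
M163.13: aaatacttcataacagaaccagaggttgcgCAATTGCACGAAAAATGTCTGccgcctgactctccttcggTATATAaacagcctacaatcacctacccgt
B0213.23: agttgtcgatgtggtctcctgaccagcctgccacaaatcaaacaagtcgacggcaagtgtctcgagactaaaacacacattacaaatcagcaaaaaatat

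The word TATATA, which reads the same on both strands, lay within 100 bp upstream of 20 of 99 snRNA genes (20.2%), against 5.07% of all genes. Genes with identical transcripts hold much of this: with 1 gene per identical transcript it was 7 of 74 (9.46%). That count keeps 1 upstream region per transcript, although the upstream bases of such genes can differ. Of the 20 genes, 16 were in the W05B2.8 family, and in each of them the word began 31 to 30 bp before the 5' end. The other holders were T14B4.10, F20D1.21, smy-1 and M163.13. In M163.13 the word began 30 bp and the best consensus match 70 bp before the 5' end, the places both take in K09B11.15 and F54C8.10. TATAAA showed no steady difference: it was held by 19.2% of snRNA genes and 17.5% of all genes, but by 13.5% of snRNA genes with 1 gene per identical transcript, and within 250 bp by 30.3% of snRNA genes and 34.1% of all genes. TTTTT was held by 27.3% of snRNA genes and 78.4% of all genes. GGTTCGA and GGTTCAA, core words of the internal promoter of tRNA genes, were within 100 bp upstream of none of the 99, against 0.493% and 1.18% of all genes. Within 250 bp they were upstream of 3.03% and 4.04% of snRNA genes, against 1.46% and 3.34% of all genes.

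Most snRNA genes had a TBP-1 peak, and the ranks of these peaks ran from 387 to 3245 of 3862. Reproducible summits were found no more than 500 bp from the 5' end at 57 of 99 snRNA genes (57.6%), against 8.97% of all annotated genes and 10.2% of protein-coding genes. Among each replicate's own 3862 strongest peaks the count was 58 in replicate 1, where 8.99% of all genes had such a summit, and 55 in replicate 2, where 8.74% did. In the whole lists of 30000 regions, 76 snRNA genes had a summit in replicate 1, 77 in replicate 2 and 71 in the pooled list, while 42.6%, 40.0% and 42.6% of all genes did. Among the other small RNA classes, 579 of 612 tRNA genes (94.6%), 19 of 30 spliced leader genes (63.3%) and 141 of 346 snoRNA genes (40.8%) were occupied. The median rank of the peak at occupied snRNA genes was 1104 of 3862, against 344 at tRNA, 702 at snoRNA and 808 at spliced leader genes. It was 1104 in replicate 1 and 1116 in replicate 2. None of the 57 was among the 386 strongest peaks, and at 45 the nearest summit was among the 1931 strongest.

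**Figure D1:**
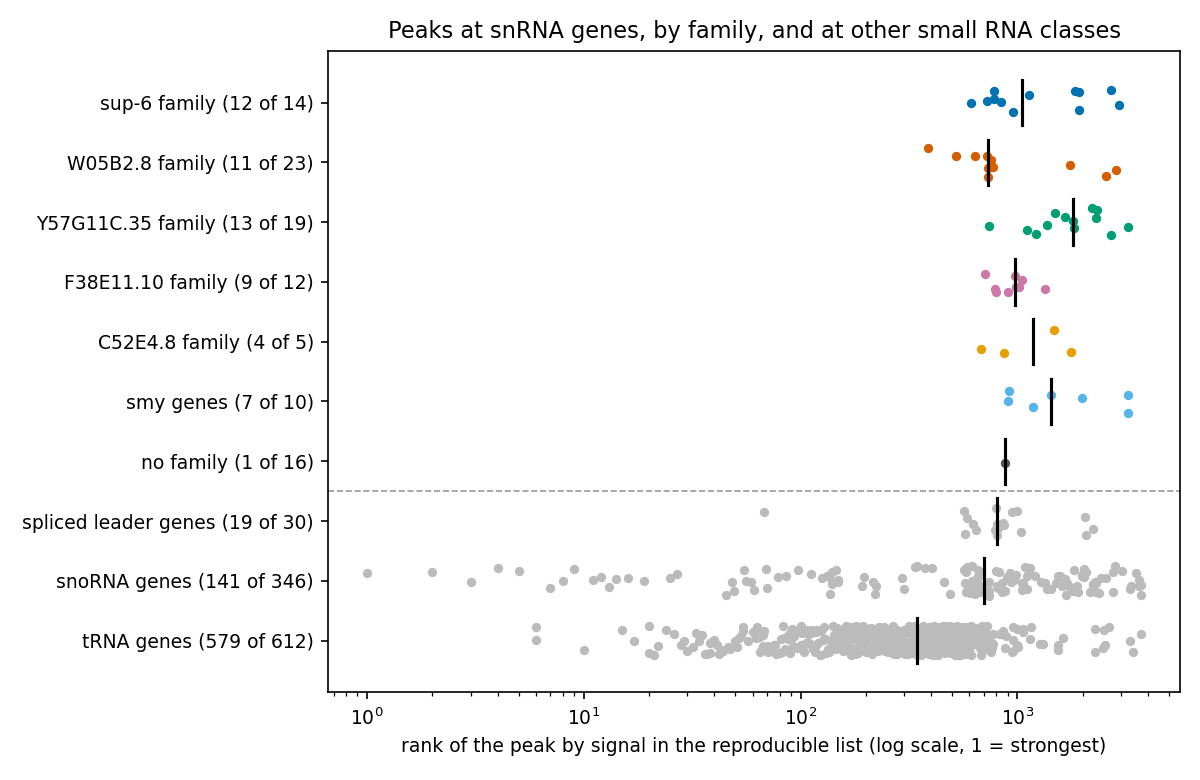
Rank of the reproducible peak at each occupied gene (log axis, 1 is the strongest), for the snRNA families above the dashed line and for the spliced leader, snoRNA and tRNA genes below it, with the number occupied in brackets and a bar at the median. No snRNA gene ranks above 387, while tRNA and snoRNA genes reach 6 and 1.

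The sup-6 family, the one with the U1-type word, was occupied at 12 of 14 genes with a median rank of 1044. At sup-6 itself the peak ranked 612, with rank 621 in replicate 1 and 567 in replicate 2, and the summit lay 19 bp upstream of the 5' end. H27M09.6 ranked 723 (730 in replicate 1 and 715 in replicate 2). At sup-39 the peak ranked 779 (763 and 772), and it is counted also for mir-1831, a gene of biotype snRNA with a transcript of 22 bases that overlaps sup-39. T27E4.12 and T27E4.22, which overlap, likewise shared a peak of rank 1925 (2165 and 1810). From the 5' end of T27E4.12 its summit lay at 82 bp, also in replicate 1. In replicate 2 the nearest summit lay at -28 bp, so that rank is of a different summit. The weaker peaks of the family were less even between replicates. F40G12.13 ranked 2955, with 3620 in replicate 1 and 1470 in replicate 2. Its nearest summits there lay at 202 and -29 bp, so these are ranks of different summits. C27H5.11 ranked 2713 and F40G12.14 ranked 1838; both had a summit in the list of replicate 1, at ranks 2444 and 1872, and none in that of replicate 2. T27E4.10 and T27E4.11 had no reproducible peak although both held the element with 18 matches, and T27E4.11 ranked 5346 in replicate 1 and 16709 in replicate 2.

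The W05B2.8 family, with the U6-type word, held the 2 strongest peaks of all snRNA genes and also many genes without a peak: 11 of 23 were occupied. W05B2.8 ranked 387 (390 in replicate 1 and 384 in replicate 2), F54D8.7 ranked 523 (524 and 516) and Y9C9A.111 ranked 637 (647 and 630). T08B6.62, Y17G9A.85 and R07E5.16 followed at 724 (731 and 735), 728 (722 and 770) and 732 (769 and 710). These 6 genes kept close ranks in both replicates.
The same family held clusters of copies that differed from them. The 3 genes F54C8.8, F54C8.9 and F54C8.10 were occupied at ranks 2849, 2570 and 1746, and F54C8.8 ranked 2735 in replicate 1 and 3886, outside the strongest 3862, in replicate 2. The 6 genes K09B11.11 to K09B11.16, which overlap the gene mam-3, had no reproducible peak. Their nearest summits ranked 4657 to 16124 in replicate 1 and 4798 to 12480 in replicate 2. F54C8.8, F54C8.9 and the 6 K09B11 genes have the same transcript, base for base, as W05B2.8. Their upstream bases differ: W05B2.8 matched the consensus at 16 positions, the F54C8 genes at 12 each and the K09B11 genes at 11 to 13. Over the family, 7 of 8 genes with 15 or more matches were occupied, against 4 of the other 15. With TATATA, 10 of 16 were occupied, and without it 1 of 7, F54C8.8. The exception with the element was Y17G9A.90, at rank 1727 in replicate 2 with no summit in the lists of replicate 1 and of the pooled reads. Among the family's genes without a peak, B0205.15, F32D1.12 and F36A4.23 had 8 matches each and no TATATA, and each has its own transcript sequence.

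The Y57G11C.35 family, with the U2-type word, was occupied at 13 of 19 genes, with a median rank of 1807. Y57G11C.35 ranked 740 (726 in replicate 1 and 740 in replicate 2) and stood well above the rest of its family, whose next peak was that of F11A5.14 at 1104 (1081 and 1358). At F11A5.14 the summit lay at 96 bp, and at 93 bp in replicate 1. In replicate 2 it lay at -68 bp, so that rank is of a different summit. W04G5.11 was the weakest at 3225, with its summit at 191 bp. Its nearest summits in the replicates ranked 1972 and 1639 and lay at -31 and -32 bp, so these are ranks of different summits. The pair F15H9.5 and F15H9.6 had no summit in any list. C05G6.4, with no reproducible peak, ranked 5163 in replicate 1 and 6206 in replicate 2. The F38E11.10 family, with the U5-type word, was occupied at 9 of 12 genes, and their ranks lay between 708 and 1347. F38E11.10 ranked 708 (713 and 680). ZK897.3, ZK897.2 and ZK897.4, all overlapping the neuronal gene unc-31, ranked 900 (919 and 896), 1019 (1042 and 969) and 1052 (1069 and 973). F38E11.11 has the same transcript as F38E11.10 and lies 19996 bp from it, with 16 matches upstream in both, yet it had no summit in any list. C53D6.16 had none either, and C53B4.9 a summit only at rank 7599 in replicate 2.

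The C52E4.8 family, with the U4-type start, was occupied at 4 of 5 genes. C52E4.8 ranked 678 (696 in replicate 1 and 640 in replicate 2). T11F9.16 was without a reproducible peak, at ranks 4644 and 5821, although it has 16 matches upstream, while T11F9.15, with 14 matches, ranked 1760 (1612 and 1704). Of the 10 smy genes 7 were occupied, with ranks from 905 to 3245. The strongest were smy-10 at 905 (963 and 880), smy-8 at 910 (915 and 938) and smy-9 at 1178 (1453 and 1484). The gene smy-10 lies 566 bp from smy-9 and 789 bp from smy-8. The weakest occupied snRNA genes of all were smy-12 at 3245 and smy-4 at 3235, which ranked 3315 and 3264 in replicate 1 and 4354 and 6490 in replicate 2. Of the genes without a reproducible peak, smy-6 ranked 8049 and 8116, smy-5 had a summit only in replicate 2 at rank 23902, and smy-7 is a case of its own. It ranked 1966 in replicate 1 and 2095 in replicate 2, with summits 15 and 48 bp upstream, but no summit of the pooled list lay within 500 bp, so that it is absent from the reproducible list.

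Of the 16 genes outside the families and the smy group, 1 was occupied (6.25%, against 8.97% of all genes). It was M163.13, at rank 876 (870 in replicate 1 and 905 in replicate 2), with its summit 9 bp upstream. Of the 16, 9 had no summit in any list. B0213.21, B0213.22 and B0213.23 are among these and overlap cyp-34A5, cyp-34A6 and cyp-34A7, genes of the cytochrome P450 family, on the opposite strand. In all, 7 of the 16 overlap a cyp-34A gene and none of the 7 was occupied, counts too small to set apart from the share over all genes. T10H4.16, 1 of these 7, had a summit at rank 3238 in replicate 2, but 267 bp upstream, and ranked 9642 in replicate 1. Counting only the 83 genes in the 6 families or with an smy symbol, 56 (67.5%) were occupied.

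The summit lay just upstream of the annotated 5' end. Its median position at the 57 occupied genes was -19 bp, with quartiles at -27 and 5 bp, and 42 of the 57 summits were upstream. In replicate 1 the median position was -17 bp, with 42 of 58 summits upstream. In replicate 2 it was -24 bp, with 47 of 55 upstream. For comparison the median was -16 bp at tRNA genes, -23 bp at spliced leader genes and -57 bp at snoRNA genes, and -176 bp at protein-coding genes. Of the 57 summits, 46 lay within 50 bp of the 5' end and 54 within 100 bp. Those farthest upstream were at Y69A2AR.36, F38E11.10 and F07C6.5, at -53, -51 and -50 bp, all of the F38E11.10 family, in which all 9 summits were upstream. Those farthest downstream were at W04G5.11, F40G12.13 and F56H6.15, at 191, 188 and 109 bp. Of 13 summits in the Y57G11C.35 family 8 were downstream, with a median of 46 bp. In replicate 1 its median was 13 bp with 6 of 13 upstream, but in replicate 2 it was -17 bp with 11 of 13 upstream. W04G5.11, for example, had its summit at -31 bp in replicate 1 and -32 bp in replicate 2.

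**Figure D2:**
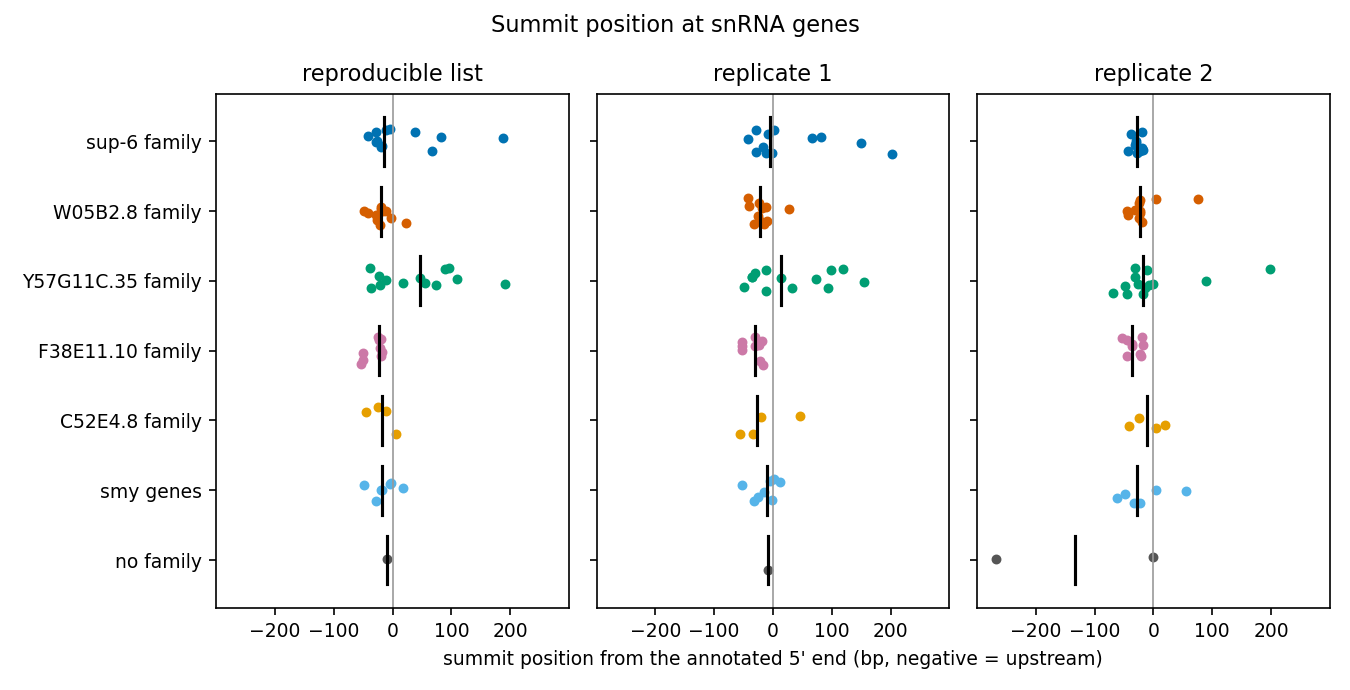
Position of the summit relative to the annotated 5' end (bp, negative is upstream) at each snRNA gene with a summit, by family, in the reproducible list and in the strongest 3862 peaks of each replicate, with a bar at the median. The medians of the other families lie left of 0 in the 3 panels, while the summits of the Y57G11C.35 family have a median of 46 bp in the reproducible list, 13 bp in replicate 1 and -17 bp in replicate 2.

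Both replicates placed nearly the same genes among their strongest peaks. Of the 57 occupied genes, 52 had a summit among the 3862 strongest of both replicates and 5 of replicate 1 only, namely C27H5.11, F40G12.14, F54C8.8, smy-4 and smy-12. Y17G9A.90 and T10H4.16 had one in replicate 2 only. At the 53 genes with a summit in both, smy-7 included, the rank in replicate 2 divided by that in replicate 1 had a median of 0.985 and ran from 0.406 to 2.23, and at 45 of them the ranks lay within 1.2 times of each other. Their summits differed by a median of 16 bp, and by 50 bp or less at 42 of the 53. The lowest ratio, 0.406 at F40G12.13, is between summits 231 bp apart. The reproducible list was drawn from both replicates, so this agreement is partly built in. Of the 42 genes without a reproducible peak, 17 had a summit in the whole lists of both replicates, 7 in 1 of them and 18 in neither, nor in the pooled list.

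**Figure D3:**
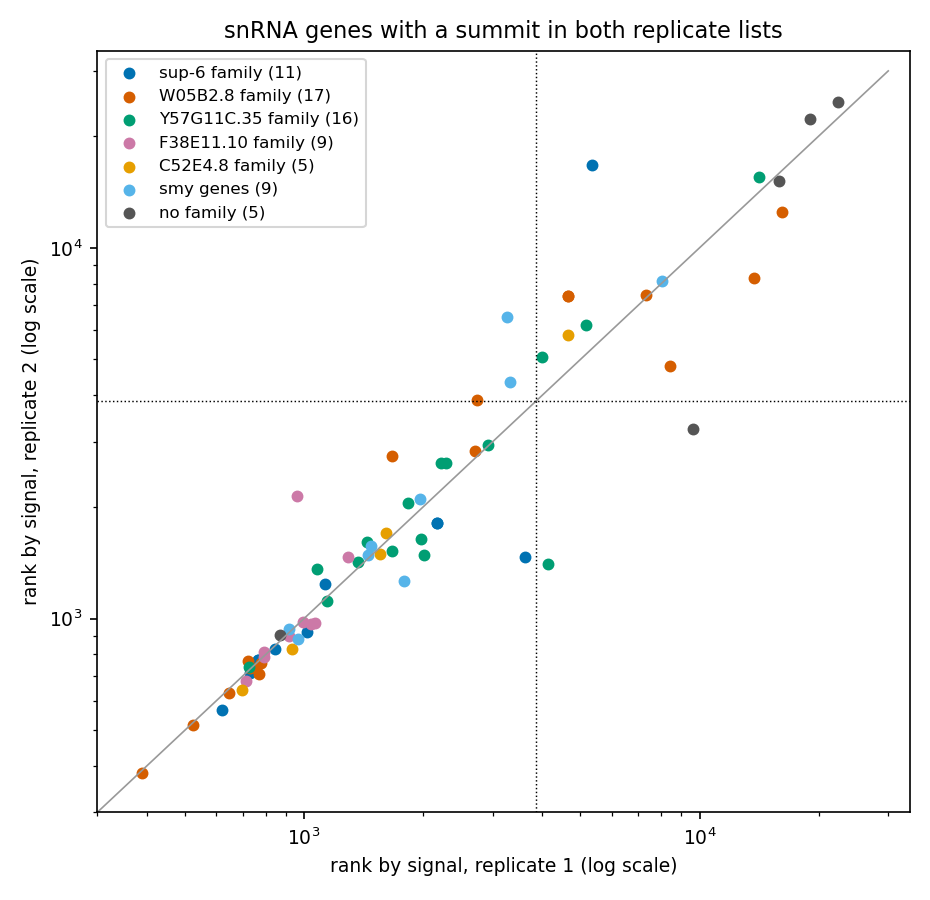
Rank of the summit nearest to the 5' end in the whole list of replicate 1 (horizontal, log axis) and of replicate 2 (vertical, log axis), for snRNA genes with a summit in both, coloured by family with their number in brackets. The solid line marks equal ranks and the dotted lines rank 3862; the strongest genes, such as W05B2.8 at 390 and 384, lie on the line, and the scatter widens at weaker ranks.

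Several genes sit in repeated sequence, where short reads may not be placed at a single site. Of the 50-base words within 250 bp of the 5' end, a median of 82.7% occurred once in the genome at occupied genes and of 88.7% at genes without a reproducible peak. F15H9.5 and F15H9.6 had 0%, T27E4.10 had 17.7%, T27E4.11 had 19.9% and the K09B11 genes had 46.7% to 68.1%. R05D7.6, with 42.0%, was occupied at rank 2324, and F38E11.11, with 82.7%, had no peak. Of the 8 genes under 50% 3 were occupied, against 54 of the other 91. By family the median was lowest in the Y57G11C.35 family, at 56.9%, against 81.5% in the sup-6 family and 83.6% in the W05B2.8 family. How repeated reads were handled is not given in the sources used here, and the part of repeats in the missing or weak peaks was not tested.

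Of the 44 snRNA genes with the upstream element 35 were occupied, and of the 55 without it 22 were. Of the 22, 13 were of the Y57G11C.35 family, with 10 to 13 matches. Another 4 were of the W05B2.8 family (R07E5.16 with 14 matches and the 3 F54C8 genes with 12). The rest were T11F9.15 with 14, smy-1, smy-9 and smy-10 with 13 or 14, and M163.13 with 10. Whether the sequence upstream of the Y57G11C.35 family is a form of the element was not tested. None of the 15 genes with fewer than 10 matches was occupied, where 10 is the fewest matches at any occupied gene. With 8.97% of all genes occupied, 15 genes are too few to set this count apart. The median rank of the occupied genes was 900 with the element and 1753 without it. Genes of 1 family share both their upstream sequence and their transcript, so these counts are not over independent genes.

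**Figure D4:**
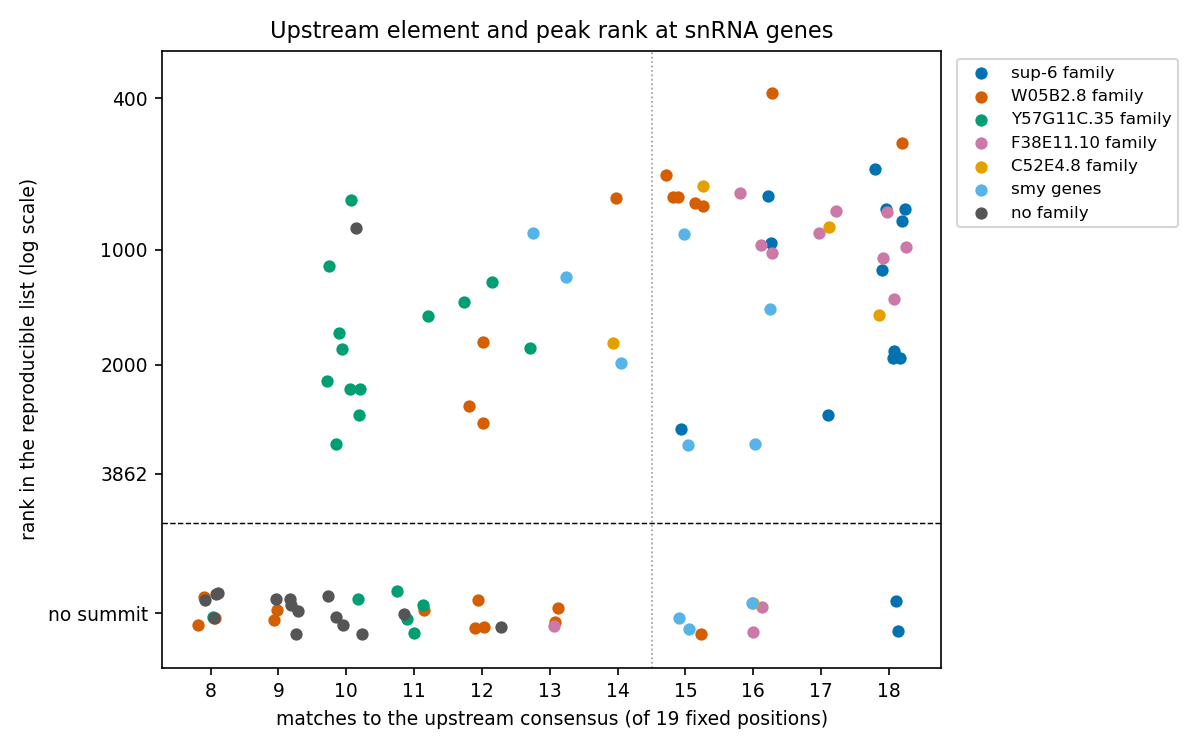
Matches to the 19 fixed positions of the upstream consensus (horizontal, with small random offsets) and rank of the reproducible peak (vertical, log axis, strongest at the top) for the 99 snRNA genes by family; genes without a summit are below the dashed line, and the dotted line marks 15 matches. No gene with fewer than 10 matches has a summit, and the genes of the Y57G11C.35 family with summits have 10 to 13. The 15 genes with fewer than 10 matches are too few to set apart from the 8.97% of all genes.

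The consensus was made from snRNA genes alone, and 70 other genes also held it. Of these, 5 lay within 1000 bp of an snRNA gene, where the upstream bases or the peak can be shared, and all 5 were occupied. The counts by class below include those 5. Of the 70 such genes, 31 were snoRNA genes, 14 piRNA, 10 other ncRNA, 7 spliced leader, 5 protein-coding and 3 miRNA genes, and no tRNA gene of 612 held it. A reproducible summit was found at 29 of 31 snoRNA genes with the element, against 112 of 315 without it. It was found at 7 of 7 spliced leader genes with the element against 12 of 23 without it, and at 9 of 10 other ncRNA genes against 906 of 7754. It was found at 3 of 14 piRNA genes with the element against 279 of 15349, at 2 of 5 protein-coding genes against 2033 of 19968, and at 1 of 3 miRNA genes against 42 of 258. Of 65 such genes with a 5' end over 1000 bp from every snRNA gene, at 61 places, 46 genes and 45 places (73.8%) were occupied, against 8.97% of all genes. These shares are over different mixes of classes. The snoRNA and spliced leader genes were occupied more often than all genes even without the element.

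**Figure D5:**
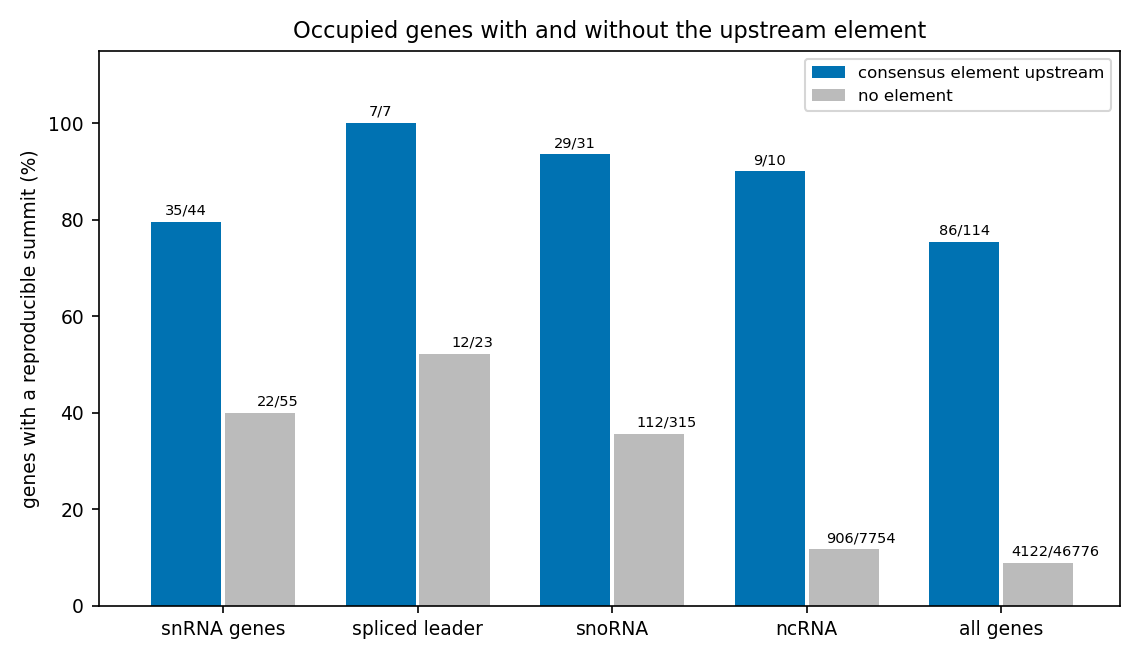
Share of genes with a reproducible summit within 500 bp of the 5' end, by gene class. Bars show genes with the upstream element (blue, left) and without it (grey, right), with the counts above each bar. The snRNA bars and the all-genes bars both hold the genes the consensus was built from. In each class shown the share is higher with the element, for example 29 of 31 against 112 of 315 snoRNA genes.

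Many of these peaks had other annotated 5' ends in reach. The 57 occupied genes had 55 separate summits, since 2 pairs overlap each other. At 38 of the 57 no tRNA, snoRNA, rRNA, spliced leader, miRNA or protein-coding 5' end lay within 500 bp of the summit. At 26 of these 38, sup-6, F38E11.10 and smy-8 among them, the end of a gene of another class or of a second snRNA gene did, so that 12 of the 57 had no other annotated end in reach. W05B2.8 and F54D8.7, with the 2 strongest peaks, are among the 12. At 53 of the 57 an snRNA gene had the nearest 5' end of all annotated genes. With a window of 1000 bp the 38 became 19. The 4 with a nearer end of another kind were sup-6, F08G2.9, F56H6.15 and smy-12, where the ends belonged to F58G1.11, ins-37, F56H6.17 and the piRNA gene 21ur-458. Only smy-1, at rank 1985, had a small RNA gene in reach, smy-2, which the annotation lists as an snoRNA gene. Protein-coding 5' ends were in reach at 18 genes. Among these were snr-4 (an Sm protein) at C52E4.8, syp-4 (a synaptonemal complex protein) at H27M09.6 and unc-31 at ZK897.4. The median rank was 1000 at the 38 genes and 1178 at the other 19. Where several 5' ends are in reach, at 45 of the 57, the genes cannot be told apart by position alone.

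Many snRNA genes overlap protein-coding genes. Of 37 that overlap such a gene on the same strand 25 were occupied. Of 23 that overlap one on the opposite strand alone 7 were, and of 39 that overlap none 25 were. W05B2.8, the strongest, overlaps dhc-4 on the same strand. The opposite-strand group holds 6 of the 7 genes over cyp-34A genes and 3 of the K09B11 genes. By chromosome, 36 of the 99 lie on IV, 28 on V, 13 on II, 12 on I, 7 on III and 3 on X. The W05B2.8 family has 13 genes on IV and 7 on III, the F38E11.10 family 11 of 12 on IV, the C52E4.8 family all 5 on V and the Y57G11C.35 family 9 of 19 on I.

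The protein genes of the snRNA pathway were occupied in part. Their lists were matched by symbol, in 15 of 16 symbols for Sm and LSm proteins, 21 of 24 for proteins of single snRNPs, 8 of 10 for the activating complex, 11 of 31 for Integrator, listed under 2 spellings, and 12 of 17 for maturation and import, so the counts are of matched genes and not of whole complexes. Of 15 matched genes for Sm and LSm proteins, which form the ring around snRNAs, 8 had a reproducible peak, against 10.2% of all protein-coding genes. The strongest were at snr-4 (rank 678, summit at -350 bp), snr-1 (1080, -385 bp) and lsm-7 (1836, -244 bp). The peak counted for snr-4 is the one at C52E4.8, so it has both 5' ends in reach. Of 21 genes for proteins of single snRNPs 3 were occupied (14.3%), a share near the 10.2% of all protein-coding genes. They were prp-8 (a U5 protein) at rank 1344, sftb-1 (a U2 protein) at 2300 and prp-31 at 3862. Of 8 genes of the snRNA activating complex, which binds the proximal sequence element, snpc-3.4 ranked 1288 and snpc-1.4 ranked 2191. These 2 of 8 are too few to set apart from the 10.2%. Of 11 genes of the Integrator complex, which cleaves the 3' end of snRNA precursors, 5 were occupied, with ints-4 at 837, ints-8 at 2954 and ints-9 at 3281, but the count was 2 in replicate 2 alone and 4 in replicate 1 alone. Of 12 genes for snRNA maturation and import 4 were occupied, led by smn-1 (assembly of Sm rings) at 1262, imb-1 (an importin) at 1676 and prmt-5 (a methyltransferase of Sm proteins) at 1809. These counts depend on the window: when a summit counted for the nearest gene alone, the Sm and LSm count was 2 in place of 8, and with 250 bp it was 4.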

How the data were processed

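TBP-1 ChIP-seq peaks from 1 group of 2 biological replicates were analysed. Per the deposited file descriptions, the authors called peaks and background regions on ce11 for each replicate and for both pooled, and thresholded reproducible peaks by IDR, the irreproducible discovery rate. The aligner, the peak caller, their versions and the treatment of repeated reads were not given in the sources used here, nor is the signal's scale. The signal of each peak, as deposited, was used only to rank peaks of the same list. The −log10 q value, as deposited, equalled 3.96 in each of the 3862 reproducible peaks and gave no order. The deposited summit offset gave each summit. Depth is unknown, so no interval is given. The control alignment was not analysed here.

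A gene counted as occupied with a summit 500 bp or less from the start of an annotated transcript of it (Ensembl release 115). Where several did, the nearest was used. Replicates were read alone by their 3862 strongest peaks and by their whole lists. Transcripts were aligned globally with Biopython 1.88 in Python 3.11.15, with numpy 2.4.6, pandas 2.3.3 and matplotlib 3.10.9. Genome sequence and unique gene names came from RefSeq (WBcel235), with all 99 names matched. Motifs were searched within 100 bp upstream; the words were counted on both strands, overlaps between words included, and the consensus on the gene's strand. The assignment of summits was tested on simulated data. Genes and lists were chosen with earlier results of these data known. Genes were named by rule: the 10 strongest and 5 weakest occupied snRNA genes, in each family the strongest and up to 3 without a peak, the 3 farthest summits on each side, genes found in 1 replicate only, those sharing a peak with a small RNA gene, and the 3 strongest of each protein list. Further genes were named after their values were seen. Alternatives were windows of 250 and 1000 bp, the 1931 strongest peaks, each replicate alone, the peak interval, the nearest 5' end, the whole pooled list, genes without a small RNA gene within 1000 bp, the strongest summit, families at 70% and 90% identity, 250 bp upstream, and 1 gene per identical transcript; 3 restrictions of the gene set were added after seeing the data.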

Additional observations from a re-analysis of the deposited data

How the results depend on the processing

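The count of 57 occupied snRNA genes was 57 with a 250 bp window, 59 with 1000 bp, 46 with any of the 1931 strongest peaks in the window, 58 with the peak interval, 51 with nearest 5' ends, 71 with the whole pooled list and 55 without genes near another small RNA gene. Over all genes the share with a summit was 8.97%, and 6.47% with 250 bp, 11.8% with 1000 bp, 5.53% with the 1931 strongest peaks, 9.98% with the peak interval, 5.48% with nearest ends and 42.6% with the whole pooled list. With restrictions added after seeing the data it was 54 among genes with 50% or more unique words, 55 without mir-1831 and T27E4.22, and 56 within the families and smy genes. Read from 1 replicate alone the count was 55 to 58, the median position -24 to -17 bp, the median rank 1104 to 1116, and the Integrator count 2 to 4. Of 153 alternatives, 122 stayed within 1.5 times the count, or within the spread between replicates for a median, and 31 did not. A 1000 bp window left 19 snRNA genes alone at their summit in place of 38. With the 1931 strongest peaks the median rank was 934, and the counts were 8 for the Y57G11C.35 family (13), 1 for the smy family by alignment (3), 5 for Sm and LSm genes (8), and 1 each for single-snRNP proteins (3), the activating complex (2) and Integrator (5). The smy family had 6 occupied genes at 70% identity and 1 at 90%. With 250 bp, Sm and LSm genes gave 4 and single-snRNP genes 1; with nearest ends, Sm and LSm genes and maturation genes gave 2 each in place of 8 and 4. The whole pooled list gave 17 for the W05B2.8 family (11), 14 for Sm and LSm genes, 14 for single-snRNP genes, 6 for the activating complex, 8 for Integrator and 9 for maturation genes. Within 250 bp upstream, TATAAA was held by 30 of 99 snRNA genes (30.3%, against 34.1% of all genes), TATAA by 59 (59.6%, against 25341 of 46890 genes), TTTTT by 74 (74.7%, against 95.7%), GGTTCGA by 3 (3.03%, against 1.46%) and GGTTCAA by 4 (4.04%, against 3.34%). Counting 1 gene per identical transcript, 74 genes, TATAAA was held by 10 (13.5%, against 17.5% of all genes), TATATA by 7 (9.46%, against 5.07%) and TATAA by 17 (23.0%, against 29.3%), so TATAAA and TATAA turned from above to below all genes; within 100 bp TATAA was held by 32.3% of the 99. TATAAA did so within 250 bp too, and GGTTCGA and GGTTCAA turned from below to above. Apart from fewer or more peaks or genes entering, the cause of these shifts was not tested. No paired analysis was possible because there is 1 group. Depth is unknown and limits what an absent peak means.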
